A study of Mus musculus with 6 samples.

Results

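The insulin-like growth factor (IGF) genes described here are 9 rows among the 44804 usable rows of a mouse expression table. They were chosen by gene symbol: the ligands Igf1 and Igf2, the receptors Igf1r and Igf2r, and the binding proteins Igfbp2, Igfbp3, Igfbp4, Igfbp5 and Igfbp7. Their values in circulating tumor cells (CTCs, tumor cells taken from blood) and in tumor cells were known when the list was drawn up, so the difference between both kinds of cell is given as a description and not tested for these genes. Mice 1157, 1168 and PDGF1 each gave 1 CTC and 1 tumor cell, 6 cells in all, whose RNA was sequenced. The sample titles of the tumor cells carry the letters GBM, the usual abbreviation of glioblastoma. Only the CTCs are called single cells in the source label, although the series text counts 6 single cells. If a tumor cell library held RNA of more than 1 cell, a mixture of cells and a level in 1 cell cannot be told apart. Genotype, strain, treatment, age and the way the tumors arose are not stated in the labels.

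IGF1 and IGF2 are small secreted hormones related to insulin. Both activate the receptor tyrosine kinase encoded by Igf1r, which signals through insulin receptor substrates to the PI3K, AKT and mTOR pathway and to growth and survival. The product of Igf2r instead takes up IGF2 for breakdown and carries lysosomal enzymes that bear mannose 6-phosphate. Secreted IGF binding proteins hold the ligands outside the cell and can either limit or prolong their action, and proteases release the ligands again. In the brain, IGF1 is made by microglia among other cells, and Igfbp2 is a gene of developing neural tissue that is often high in glioma.

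Values are FPKM, fragments scaled to transcript length and to the mapped fragments of the library, as the authors deposited them. Among the 6 libraries, both of mouse 1168 stood apart. Its CTC and tumor cell had 9702 and 11239 genes at 1 FPKM or more, while the other 4 cells had 1486 to 4078. The low FPKM values of genes with 1 transcript came in steps, which gave estimated totals of 11800000 to 56200000 fragments per cell. The CTC of mouse PDGF1, with the fewest detected genes, had 43100000, more than the 31800000 of the CTC of mouse 1168. Background was taken as the 99th percentile of olfactory and vomeronasal receptor genes of the same cell, genes of sensory neurons of the nose. Mouse 1157 had this level at 0.770 FPKM in its CTC and 1.95 in its tumor cell, mouse 1168 at 0.150 and 1.27, and mouse PDGF1 at 2.70 and 7.10. Of the 9 IGF genes, 7 lay above it in the CTC of mouse 1168 and 6 in its tumor cell, 3 in the CTC of mouse 1157, and 0 in each of the other 3 cells. Of 8 oligodendrocyte progenitor markers, such as Olig1 and Olig2, which gliomas often express, 8 lay above it in the CTC of mouse 1168, 7 in its tumor cell, 4 in the CTC of mouse 1157 and 0 in the rest. Among all named protein-coding genes the shares above it were 53.2% for the CTC of mouse 1168, 47.1% for its tumor cell and 13.2% for the CTC of mouse 1157. These shares were 7.71% for the tumor cell of mouse 1157, and 2.29% for the CTC and 1.44% for the tumor cell of mouse PDGF1.

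**Figure D1:**
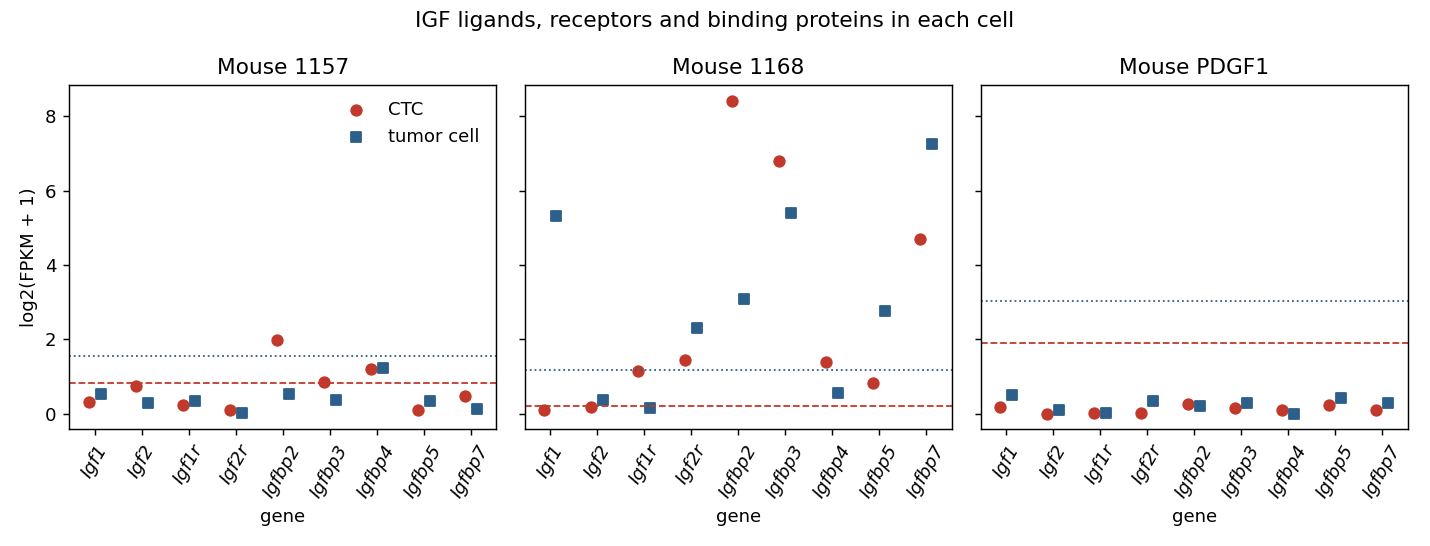
Level of each IGF gene, as log2(FPKM + 1), in the CTC (red circles) and the tumor cell (blue squares) of each mouse. Dashed red and dotted blue lines mark the background, the 99th percentile of receptor genes, of the CTC and of the tumor cell. Only in mouse 1168 do several genes stand far above these lines; Igfbp2 leads in its CTC at 343 FPKM and Igfbp7 in its tumor cell at 152 FPKM.

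The ligand genes were low in nearly every cell. Igf1, on chromosome 10 from 87858265 to 87937042 (plus strand, GRCm38), was at 0.234 FPKM for the CTC of mouse 1157 and 0.447 for its tumor cell. Mouse 1168 had 0.0759 against 39.1 FPKM, and mouse PDGF1 had 0.123 against 0.423. The tumor cell of mouse 1168 thus stood alone above its background, and each CTC lay below the tumor cell of its own mouse. The groups overlapped in no value, since the highest CTC was under the lowest tumor cell, but 5 of the 6 values lay below background. Igf1 was the 1 gene of the 9 with such an order, which 2.88% of 32679 genes over 0 in at least 1 cell showed, and 0 of the 9 had the reverse order (0.474% of genes). In mouse 1168 at most 16.5 fragments lay on the gene in the CTC, against at most 15073 in the tumor cell. Igf2, the ligand of fetal growth that is expressed from the paternal allele, lies on chromosome 7 from 142650766 to 142666816 (minus strand). Mouse 1157 had 0.669 FPKM in its CTC and 0.220 in its tumor cell, mouse 1168 had 0.122 and 0.293, and mouse PDGF1 was listed at 0 in the CTC with 0.0639 in the tumor cell. No cell had Igf2 above background, and H19, the non-coding gene imprinted in the opposite direction beside it, was at most 0.701 FPKM.

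The Igf1 value of the tumor cell of mouse 1168 came with transcripts of myeloid cells. Of 14 microglia and macrophage markers, 11 lay above background in that cell and 6 in the CTC of the same mouse. Of all named protein-coding genes, 47.1% and 53.2% did. The summed levels of these markers were 2363 and 233 FPKM. In the other tumor cells the sum was 12.6 (mouse 1157) and 25.6 (mouse PDGF1), and in the CTCs of these mice 4.47 and 2.001. Lyz2, Ctss and Tyrobp gave most of the sum in the tumor cell of mouse 1168, at 1202, 672 and 346 FPKM. Among the defining markers, Csf1r was at 3.52 FPKM and C1qa at 13.04 there, while Cx3cr1 was at 0.0301 and Tmem119 at 0.814. In the CTC of that mouse Aif1, C1qa and Tmem119 were listed at 0. The part of these cells' RNA in the Igf1 value was not tested.

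The receptor genes reached at most 3.93 FPKM, for Igf2r in the tumor cell of mouse 1168. Igf1r, on chromosome 7 from 67952827 to 68233668 (plus strand), had 0.178 FPKM for the CTC of mouse 1157 and 0.259 for its tumor cell. Mouse 1168 had 1.20 against 0.103 FPKM, and mouse PDGF1 0.0162 against 0.0113. It exceeded background only in the CTC of mouse 1168. Insr, the insulin receptor, which can pair with the IGF1 receptor, likewise exceeded it in that cell alone, with 3.45 FPKM for the CTC and 0.359 for the tumor cell.

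Igf2r, on chromosome 17 from 12682406 to 12769664 (minus strand), has 1 long coding transcript in GENCODE, and its values in the sparse cells came out near whole fragments. Its CTC values were 0.0626 FPKM (mouse 1157), 1.71 (1168) and 0.0160 (PDGF1), at most about 15.01, 473 and 5.996 fragments. The tumor cell values were 0.0196, 3.93 and 0.276 FPKM in the same order of mice, at most about 2.001, 1924 and 98.96 fragments. Both cells of mouse 1168 were above background, with the tumor cell 2.30 times higher, and the remaining 4 were below it. Of the 4 other genes of the mannose 6-phosphate pathway, all were above background in both cells of mouse 1168 and none in the remaining cells. Of all named protein-coding genes, 53.2% were above it in the CTC of mouse 1168 and 47.1% in its tumor cell. In the remaining cells that share was 1.44% to 13.2%. M6pr, the smaller mannose 6-phosphate receptor, was at 9.74 FPKM in that CTC and 19.2 in the matched tumor cell. Gnptab and Gnptg, subunits of the enzyme that starts the tag, went in opposite directions, at 1.37 against 6.08 and at 23.9 against 14.5 FPKM, and Nagpa, which uncovers the tag, was at 2.37 against 1.63.

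A binding protein gene was the highest of the 9 in 5 of 6 cells, in 3 of them above background, and the makeup of these genes differed from cell to cell. Igfbp2, on chromosome 1 from 72824503 to 72852474 (plus strand), had 2.91 FPKM for the CTC of mouse 1157 and 0.437 for its tumor cell. Mouse 1168 had 343 against 7.46 FPKM, and mouse PDGF1 had 0.203 against 0.152. On the deposited scale the CTC was the higher cell in each mouse (in mouse 1157 the order reversed when cells were rescaled to their named protein-coding genes), but the groups overlapped, since the tumor cell of mouse 1168 exceeded the CTCs of the other mice. Igfbp2 ranked 285 of 18748 named protein-coding genes in the CTC of mouse 1168 and 4218 in its tumor cell, and its FPKM was 46.0 times higher in the CTC. In mouse 1157 it ranked 865 in the CTC, with at most 88.0 fragments, and 6076 in the tumor cell, with at most 5.54. In mouse PDGF1 both cells were under background, with at most 9.77 fragments for the CTC and 6.99 for the tumor cell.

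Igfbp3, which carries most circulating IGF in a complex with the acid-labile subunit, lies on chromosome 11 from 7206086 to 7213923 (minus strand). Mouse 1157 had 0.813 FPKM in its CTC and 0.294 in its tumor cell, mouse 1168 had 111 and 41.5, and mouse PDGF1 had 0.109 and 0.225. Both cells of mouse 1168 were far above background, and the CTC was the higher one in mice 1157 and 1168 and the lower one in mouse PDGF1, where both values were below background, as was the tumor cell of mouse 1157. The gene Igfals of the acid-labile subunit was listed at 0 in 4 cells, and in mouse 1157 had 0.458 FPKM for the CTC and 0.406 for the tumor cell. Igfbp1, which lies 3539 bases from Igfbp3 with no coding gene between them, had 0.0552 FPKM for the CTC of mouse 1157 and was listed at 0 in the other 5 cells.

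Igfbp7, a secreted protein with low affinity for IGFs that is prominent in vessel walls, lies on chromosome 5 from 77349240 to 77408041 (minus strand). Mouse 1157 had 0.3998 FPKM in its CTC and 0.0955 in its tumor cell, mouse 1168 had 25.1 and 152, and mouse PDGF1 had 0.0749 and 0.209. In mouse 1168 the order was the reverse of that of Igfbp2, with 6.06 times as much FPKM in the tumor cell, and the values of the other mice were below background. Of all named protein-coding genes, 47.1% lay above background in that tumor cell and 53.2% in the CTC of mouse 1168. Nothing is therefore read from the marker counts that follow. Of 9 endothelial markers, 3 lay above background in that tumor cell, with Cdh5 at 4.69 FPKM and Cldn5 listed at 0, and 2 in the CTC. The summed level of these markers was 12.9 against 0.872 FPKM. Over the 6 cells the endothelial sum ran from 0.872 to 21.05 FPKM, highest in the CTC of mouse 1157 through Vwf at 19.4. Pericyte and smooth muscle markers summed to 57.2 FPKM for that tumor cell and 20.5 for the CTC, with 4 and 3 of 9 above background. Cspg4, also a marker of oligodendrocyte progenitors, gave 17.5 FPKM of the CTC's sum, where Acta2 was listed at 0 and Tagln was at 0.0910, against 23.1 and 29.2 in the tumor cell. Fibroblast and meningeal markers summed to 102 and 60.6 FPKM, with 5 and 2 of 8 above it. In the CTC, Ptgds at 55.2 and Pdgfra at 5.28 gave nearly all of the sum. Ptgds was also the largest part of the sum in the tumor cell, at 69.5 FPKM. Dcn was listed at 0 and Col1a2 at 0.0342 in the CTC, against 18.8 and 6.25 in the tumor cell. The part of such cells in the Igfbp7 value was not tested.

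Igfbp5, on chromosome 1 from 72857932 to 72874884 (minus strand), is the tail-to-tail neighbour of Igfbp2, with 5457 bases and no coding gene between them. Mouse 1157 had 0.0750 FPKM in its CTC and 0.272 in its tumor cell, mouse 1168 had 0.763 and 5.79, and mouse PDGF1 had 0.164 and 0.332. On the deposited scale the tumor cell was the higher one in each mouse, opposite to Igfbp2, while after that rescaling this opposition held in mouse 1168 alone. Only the cells of mouse 1168 were above background, and the groups overlapped. Igfbp4, a binding protein that holds IGFs until the protease PAPP-A cuts it, lies on chromosome 11 from 99041244 to 99054392 (plus strand). The CTC and tumor cell values were 1.29 and 1.34 FPKM for mouse 1157, 1.60 and 0.478 for mouse 1168, and 0.0779 and 0 for mouse PDGF1. Its level in mouse 1157 was nearly equal in both cells, and it exceeded background in the CTCs of mice 1157 and 1168.

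Summed over the 5 binding protein genes, mouse 1157 had 5.496 FPKM in its CTC against 2.44 in its tumor cell, mouse 1168 had 482 against 207, and mouse PDGF1 had 0.628 against 0.918. Igfbp2 was the highest of the 5 in each of the 3 CTCs, with 53.0%, 71.3% and 32.3% of the sum, and in none of the tumor cells, where it had 17.9%, 3.60% and 16.6%. The highest gene of the tumor cells was Igfbp4 in mouse 1157, Igfbp7 in mouse 1168, with 73.3% of the sum, and Igfbp5 in mouse PDGF1. In both cells of mouse PDGF1 and in the tumor cell of mouse 1157 all values behind these shares were below background. The total FPKM of a cell differed too. CTC totals were 236427 (mouse 1157), 727351 (1168) and 46973 (PDGF1). Tumor cell totals, in that order of mice, were 80273, 615548 and 51239. The totals of mouse 1157 stood further apart in proportion than its binding protein sums. Its larger sum in the CTC is therefore not read as a higher level of these genes.

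**Figure D2:**
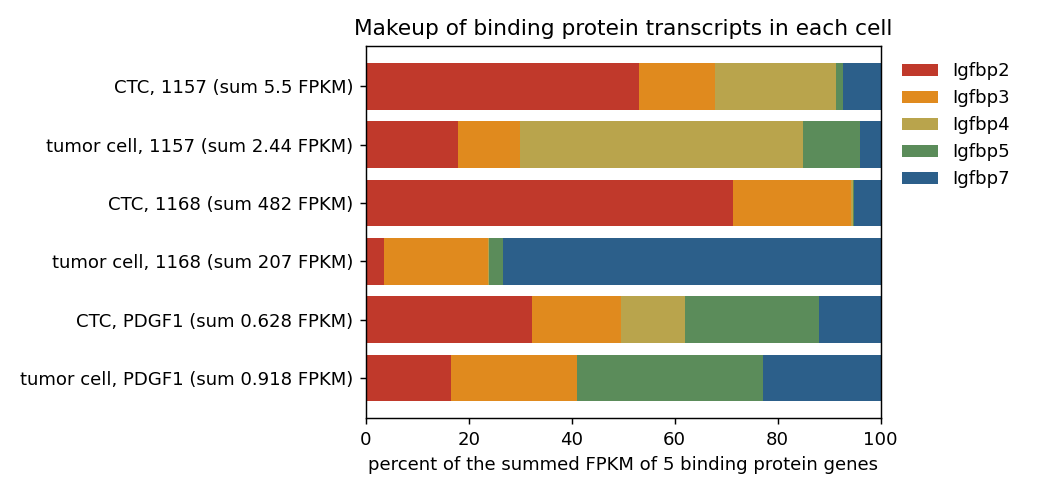
Share of each binding protein gene in the summed FPKM of Igfbp2, Igfbp3, Igfbp4, Igfbp5 and Igfbp7, 1 bar per cell, with the sum beside its name. In mouse 1168 Igfbp2 (red) takes 71.3% of the CTC bar and 3.60% of the tumor cell bar, and Igfbp7 (blue) takes 73.3% in that tumor cell.

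The sequence before the start is shown for the 2 genes that differed most in each direction in mouse 1168 by log2(FPKM + 1). These are Igfbp2 and Igfbp3, higher in its CTC, and Igfbp7 and Igf1, higher in its tumor cell. Each sequence is the 100 bases upstream of a start in RefSeq (GRCm38.p6), 5′ to 3′ on the strand of the gene. Capitals mark GGGCGG, the GC box bound by Sp1 factors, and TATANA, a form of the TATA box, each searched on both strands. The windows are chr1:72824380-72824479 (plus strand) for Igfbp2, chr11:7213924-7214023 (minus strand) for Igfbp3, chr5:77408046-77408145 (minus strand) for Igfbp7 and chr10:87861011-87861110 (plus strand) for Igf1. RefSeq lists 2 starts for Igfbp2, of which the one nearer the GENCODE start was used, and the Igf1 start lies 2846 bases inside the GENCODE gene.
Igfbp2: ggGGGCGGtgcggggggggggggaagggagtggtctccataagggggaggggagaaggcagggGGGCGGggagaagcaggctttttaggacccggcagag
Igfbp3: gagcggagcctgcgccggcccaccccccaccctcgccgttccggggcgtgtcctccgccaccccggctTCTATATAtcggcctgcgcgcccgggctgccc
Igfbp7: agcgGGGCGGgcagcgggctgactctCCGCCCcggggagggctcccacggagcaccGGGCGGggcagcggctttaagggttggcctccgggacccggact
Igf1: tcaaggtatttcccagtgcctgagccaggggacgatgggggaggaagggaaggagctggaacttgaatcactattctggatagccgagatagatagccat
Igfbp2 and Igfbp7, which went in opposite directions, both held GC boxes, 2 and 3 of them, and no TATA match. Igfbp3 held TATA matches at 2 overlapping positions in 1 run of letters, and Igf1 held neither motif. GC content was 71%, 77% and 77% in the Igfbp2, Igfbp3 and Igfbp7 windows and 52% in that of Igf1, against a median of 55% over 32851 such windows. Of those windows 24.7% held GGGCGG and 9.48% held TATANA, so these matches describe the sequences only.

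Within mice, differences were taken as CTC minus tumor cell on the log2(FPKM + 1) scale, on which changes of low genes come out too small. With 1 cell of each kind per mouse there is no replicate check. In mouse 1168, 8 IGF genes reached 1 FPKM in either cell, of which Igfbp2 (5.35) and Igfbp3 (1.40) exceeded a difference of 1 toward the CTC. Igf1 (-5.22), Igfbp7 (-2.55) and Igfbp5 (-1.94) exceeded it toward the tumor cell. Igf1r at 0.99 and Igf2r at -0.86 fell just short. Among all 12396 genes measured in that mouse, 22.7% were higher and 24.9% lower by as much, and the median was 0.04, beside -0.02 for the 8 IGF genes. Since the list was chosen with this contrast in view, nothing is read from these counts. Rescaling both cells to their named protein-coding genes moved the median of all genes to -0.56 and left the signs of the 8 genes as they were, with Igfbp3 at 0.93, Igf1r at 1.25 and Igf2r at -1.39.

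In mouse 1157 only Igfbp2 and Igfbp4 reached 1 FPKM in either cell, with differences of 1.45 and -0.03, where 29.0% of 5961 genes were higher and 37.1% lower by at least 1. After the same rescaling, which moved the median of all genes there from -0.62 to -2.82, the Igfbp2 difference was -0.34, so its direction in that mouse depended on the scaling. The rescaled Igfbp3 difference was -1.49 in mouse 1157, where it had been 0.49, and 0.04 in mouse PDGF1, where it had been -0.14. That of Igfbp5 in mouse PDGF1 went from -0.19 to 0.07, while each CTC kept a lower Igf1 value than the tumor cell of its mouse. In mouse PDGF1 no IGF gene reached 1 FPKM, while of 4042 genes 23.7% were higher than in the tumor cell by as much and 59.9% were lower.

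**Figure D3:**
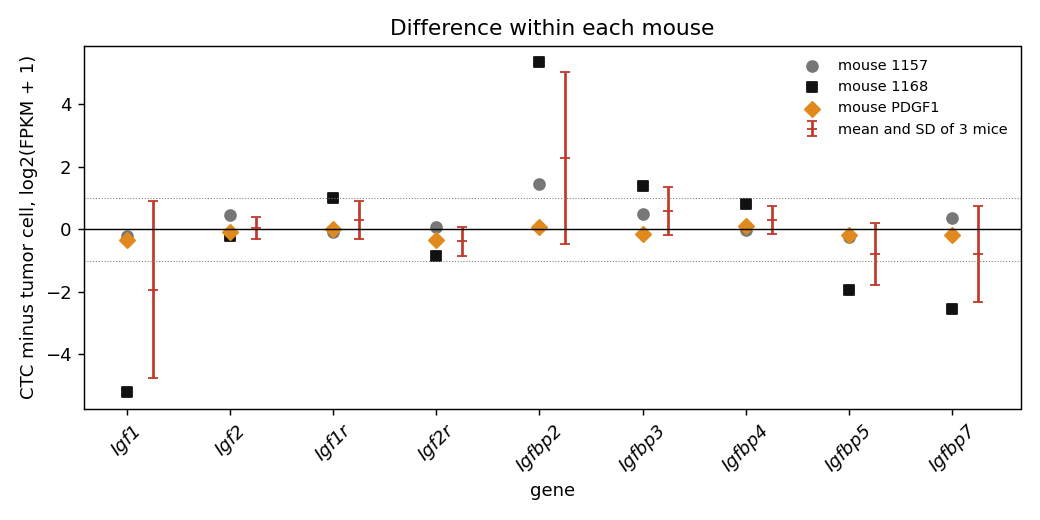
CTC minus tumor cell on the log2(FPKM + 1) scale for each IGF gene, 1 symbol per mouse, with the mean and SD over 3 mice in red and dotted lines at 1 and -1. The differences of mouse 1168 (black squares) reach 5.35 for Igfbp2 and -5.22 for Igf1, while those of mouse PDGF1 lie near 0.

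Over the 3 mice the mean difference was 2.29 ± 2.74 (SD, n = 3) for Igfbp2 and -1.93 ± 2.85 (SD, n = 3) for Igf1, both within the spread between mice. For Igfbp7 it was -0.79 ± 1.55, for Igfbp5 -0.79 ± 0.997, for Igfbp3 0.58 ± 0.78, and for Igf2r -0.38 ± 0.46 (SD, n = 3 for each). Those of Igf1r, Igfbp4 and Igf2 were 0.30 ± 0.60, 0.30 ± 0.45 and 0.05 ± 0.35 (SD, n = 3 for each). The SD exceeded the size of the mean for each of the 9 genes. Without mouse 1168 the Igfbp2 difference was 0.75, that of Igf1 was -0.29, and that of Igfbp7 turned to 0.09. Igfbp2 and Igfbp4 were the 2 of 9 genes that passed the filter of 1 FPKM or more in at least 3 cells. The fit over the 4165 genes that passed it called 0 (limma, adjusted p under 0.05), 0 percent of genes, with 7 at an unadjusted p under 0.05 (217 with the mouse as a block). Without the block the fit left out the pairing by mouse, so differences between mice added to its spread. For Igfbp2 the SE of the difference was 2.35 without the block and 0.98 with it. The lack of calls therefore does not show equal levels. Blocking on the mouse gave 1 call, 0.0240% of the genes: Snora2b, a small nucleolar RNA and not an IGF gene.

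The other genes of the IGF pathway showed no call either. Of 56 such genes in the table, 14 passed the filter, 0 were called by limma without or with the mouse as a block, and 0 had an unadjusted p under 0.05 without it. Of these 14 differences 3 were above 0, and the median of the 14 was -0.36, beside -0.06 over all genes tested. The share above 0 among all genes tested was not computed, so nothing is read from the count of 3. In mouse 1168, 24 transducers of receptor signals were measured, of which 4 exceeded a difference of 1 toward the CTC and 5 toward the tumor cell (22.7% and 24.9% of all genes measured did), with a median of 0.03. Grb14, an adaptor that inhibits insulin receptor signalling, was the highest of them, at 112 FPKM for the CTC of mouse 1168 and 68.8 for its tumor cell. Mtor, the growth kinase, was at 35.6 against 2.03 FPKM, and its activator Rheb at 42.8 against 26.2. Eif4ebp1, a translation repressor that mTOR switches off, went the other way, at 35.2 against 80.2. In mouse PDGF1 Mtor was at 0.0527 against 0.0260 FPKM and in mouse 1157 at 0.0997 against 0.550, all 4 below background.

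**Figure D4:**
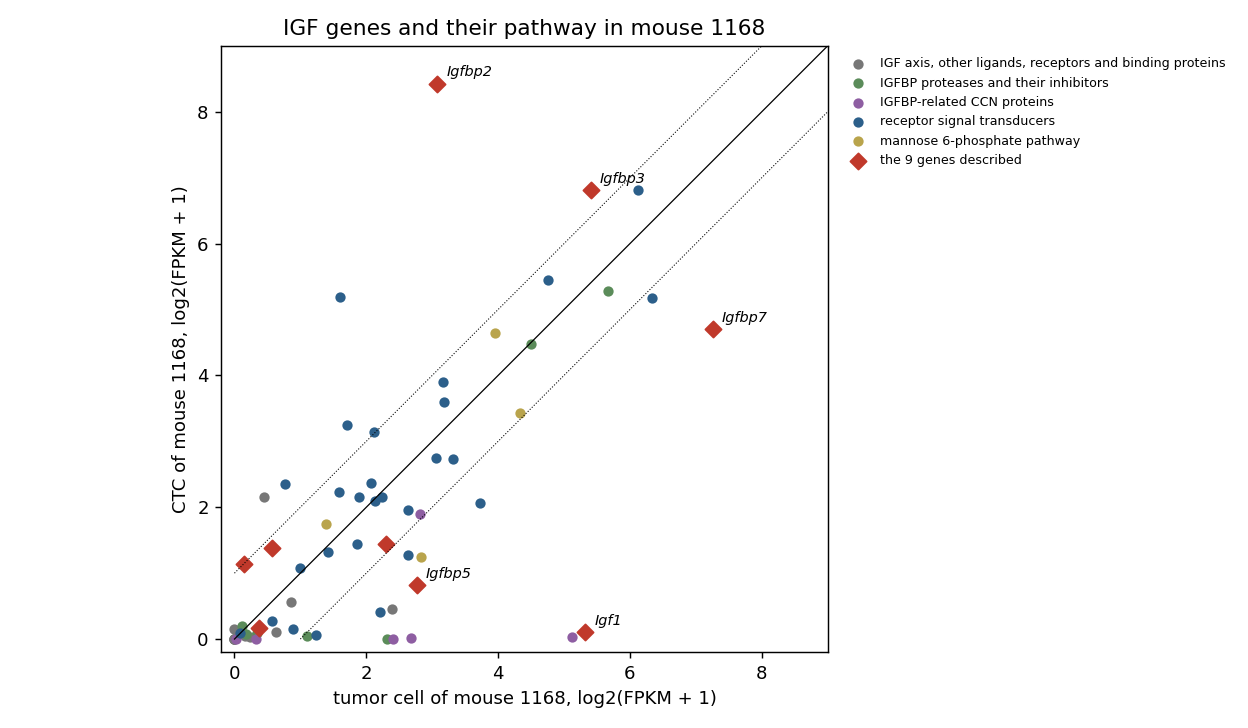
Levels in the CTC against the tumor cell of mouse 1168, both as log2(FPKM + 1), for the 9 IGF genes (red diamonds) and 5 lists of other pathway genes (circles). The solid line marks equal levels and the dotted lines a difference of 1; Igfbp2 lies far above them, and Igf1 and Igfbp7 far below.

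Among proteases listed for binding proteins, Htra1, a serine protease that cuts IGFBP5, had 37.9 FPKM for the CTC of mouse 1168 and 49.7 for its tumor cell. The metalloprotease gene Adamts1 was at 21.3 and 21.7 FPKM. Both lay within a log2 difference of 1 between these cells, whose Igfbp2 differed by 46.0 times. Pappa2, a protease of IGFBP3 and IGFBP5, reached 2.11 FPKM for the CTC of mouse 1157 and was at most 0.235 in the other cells. Stc1, a stanniocalcin that inhibits such proteases, was listed at 0 in the CTC of mouse 1168 and was at 3.997 FPKM in its tumor cell. Pappa itself was at most 0.314 FPKM.

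The CCN genes encode matrix proteins with a domain like that of the IGF binding proteins. In mouse 1168, 3 of 4 measured exceeded a difference of 1 toward the tumor cell and 0 toward the CTC, beside 24.9% and 22.7% of all genes measured, with a median of -2.54. These were Nov, at 0.0236 FPKM in this CTC against 33.7, Ctgf, at 4.64e-08 against 4.29, and Wisp1, at 0.00642 against 5.39. Cyr61, at 2.72 against 6.03, fell short of it. In mouse PDGF1 Wisp1 was above background in the CTC, at 14.1 FPKM, and below it in the tumor cell, at 2.28. The RNA-binding protein genes Igf2bp1 and Igf2bp2, whose products bind Igf2 mRNA, were at 0.817 against 3.31 and 0.270 against 2.67 FPKM in mouse 1157, and at 0.0807 against 0.550 and 0.373 against 4.22 in mouse 1168. Igfbpl1, a binding protein relative of developing brain, was at most 0.811 FPKM.

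The genes whose levels over the 6 cells lay closest to the leading gene of each role were found by Euclidean distance of log2(FPKM + 1) among named protein-coding genes. Among those near Igf1 were Bgn, a matrix proteoglycan, at 0.51, and C4b, a complement component, at 0.52. In the tumor cell of mouse 1168 they were at 36.9 and 35.3 FPKM and in its CTC at 0.0645 and 0.0577. Nearest to Igf2r were Bcl2l13, Cyld and Dnmt1, at distances of 0.20, 0.24 and 0.26. Nearest to Igfbp2 were Lypd1, Mapt, which encodes the microtubule protein tau, and Kcnmb4, a potassium channel subunit, at 1.75, 1.84 and 1.85. These were at 190, 181 and 173 FPKM in the CTC of mouse 1168 and at 6.27, 21.3 and 10.3 in its tumor cell. Over 6 cells such distances rest mostly on the pair from mouse 1168.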

How the data were processed

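RNA of 3 CTCs and 3 tumor cells from 3 mice was amplified in 3 rounds and sequenced, per the labels' protocols. The authors deposited FPKM per gene; Cufflinks 2.2.1, STAR 2.4.2a and the build GRCm38 are listed in the submitters' processing notes. The handling of multiply matching reads is not stated. Of 45038 rows, 27 with date-like names and 207 others with repeated names were left out. Of those kept, 41450 names matched GENCODE release M21 (GRCm38), which supplied coordinates, classes and transcript lengths, with 18748 named protein-coding and 1445 receptor genes.

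Log2(FPKM + 1) was fitted with limma 3.58.1 (R 4.3.3, mean-variance trend, two-sided, Benjamini-Hochberg adjustment, threshold 0.05) over genes that reached 1 FPKM in at least 3 cells. The fit was also run on simulated data with the same spread for every gene and no effect of the mouse. Such data differ from these cells, so nothing is read from that run. Python 3.11.15, pandas 2.3.3 and matplotlib 3.10.9 did the rest. Fragment totals came from genes with 1 transcript over 700 bases: FPKM times length, less an offset of 190 to 235 bases fitted per cell, came in steps. Between 86.6% and 89.2% of values up to 10 fragments lay within 0.1 of a whole number, where evenly spread values would give 20%. Fragments at most on a gene use its longest GENCODE transcript; amplified fragments are not independent molecules. Each cell is 1 sample, and p-values measure only the spread between these samples.

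Each mouse gave both cells, so the mouse pairs them. After group means were removed, cells of a mouse correlated across genes at 0.178 (mouse 1157), 0.689 (mouse 1168) and 0.428 (mouse PDGF1). Cells of different mice were not compared in this way, so these values do not test the pairing. The genes, lists and tests were chosen with earlier results of these data known. The text names all 9 IGF genes, the 3 nearest genes to the leading gene of each role and up to 4 genes of highest FPKM per pathway list. 1 of the nearest genes is not reported here. H19, Igfals, Igfbp1, Pappa, Snora2b and single markers outside that rule were chosen after their values were seen. So were the limit of the background to protein-coding receptor genes, the fragment estimates and the counts of genes whose groups did not overlap. Marker lists for leukocytes, astrocytes, oligodendrocyte progenitors, neurons, choroid plexus, platelets and red cells were also summed. For mouse 1168, CTC first and tumor cell second, these sums were 5.14 and 303 FPKM for leukocytes, 50.9 and 16.9 for astrocytes, 432 and 198 for oligodendrocyte progenitors, 0.213 and 4.95 for neurons, 0.882 and 0.264 for choroid plexus, 72.2 and 12.8 for platelets (Itga2b alone 68.0 and 6.09, with Ppbp at 0 and 0.0799), and 0.182 and 0 for red cells. Alternatives were other pseudocounts, filters, scalings, thresholds, the mouse as a replicate block, and leaving out cells or mice.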

Additional observations from a re-analysis of the deposited data

How the results depend on the processing

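The count of genes called by limma was 0 and became 1 with the replicate block and 1 with cells rescaled over named protein-coding genes, which moved the median of all genes to -1.15, Snora2b both times. It was 0 under every other alternative run. The replicate block changed no other call. The median difference of the other pathway genes, -0.36, became -2.03 with that rescaling and ran from -0.85 to 0.17 when cells or mice were left out. Of the IGF genes, 1 was higher in the CTC of mouse 1157. This became 0 with a pseudocount of 5, a minimum of 5 FPKM, the rescaling or a threshold of 2. The rescaling made 6 lower in that mouse, where it moved the median of all genes to -2.82. In mouse 1168 the count higher was 2, but 4 with a pseudocount of 0.1 and 1 with a threshold of 2. In mouse PDGF1 the rescaling gave 3 higher and 2 lower in place of 0, with a median of all genes of -0.17. The shares of all genes past the threshold under these alternatives were not computed, so nothing is read from the counts. With the 95th percentile as background, 6 IGF genes exceeded it in the CTC of mouse 1157 in place of 3, 3 in its tumor cell in place of 0, and 4 in the CTC of mouse PDGF1 in place of 0. The share of all named protein-coding genes above that percentile was not computed. With receptor pseudogenes added, chosen after seeing the data, the 99th percentile gave the same counts in all 6 cells. At a fixed 1 FPKM the count was 1 in the tumor cell of mouse 1157, where 16.0% of named protein-coding genes reached that level. When cells or mice were left out, the Igfbp2 mean difference ran from -0.15 (without the CTC of mouse 1168) to 3.93, that of Igf1 from -2.78 to -0.29, that of Igfbp7 from -2.26 to 1.56 and that of Igfbp3 from -1.52 to 2.27. The filter of 5 FPKM, and leaving out mouse 1168, left no pathway gene to test. The causes were not tested.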
